A study of Mus musculus with 14 samples.

Results

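ProB cells were compared with Ly6D+ common lymphoid progenitors (CLP), the step at which a lymphoid progenitor that still keeps other fates gives way to a cell of the B lineage. The comparison rests on 4 of the 14 arrays of the series, 2 titled ProB and 2 titled Ly6D+ CLP, and on the 18193 genes that a probe set with a single gene symbol measured. No gene was removed for a low value, so every measured gene is accounted for below. Both groups were sorted from bone marrow of C57Bl6 wild-type mice, adult and 8 to 12 weeks old, with no treatment and no transplant. The titles call the replicates biological, and the sort gates beyond the group names are not stated in the labels, so it is not known how pure each gate was or how many mice were pooled. Other groups are used for context and carry the same marrow origin: Ly6D- CLP and PreB (2 arrays each), and WT engrafted and Pax5KO engrafted (3 each). The engrafted cells descended from day 15 fetal liver, wild type or without Pax5, with a λ5 reporter in both. They were recovered from irradiated recipients after 4 weeks by sorting B220+ λ5+ cells.

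The B lineage is built by a small network of transcription factors. EBF1 and E2A start the program in the lymphoid progenitor, and PAX5 then locks it in, switching on components of the B cell receptor and shutting genes of other lineages. The surrogate light chains λ5 and VpreB pair with the first heavy chain to form the pre-B receptor, while FLT3 ligand and IL-7 support the cells before and during this step. Ly6D, a small anchored surface protein, marks the fraction of CLP biased to the B lineage.

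Compared with Ly6D+ CLP, ProB cells had higher levels of the B cell genes Enpep, Fcrla and Cd22, and lower levels of Cd34 and Flt3, surface proteins of progenitors. The arrays of the groups did not overlap for any of these 5 genes, nor for 33.8% of all genes. Genes of the surrogate light chain and the factor Ebf1 were already high in Ly6D+ CLP and were not called different. In all, 1327 genes were called at a limma adjusted p under 0.05, which is 7.29% of those tested. Of them 351 (1.93%) were higher and 976 (5.36%) lower in ProB cells, with median differences of 1.91 and -2.18. Of single probe sets, 1739 (4.98%) were called.

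**Figure D1:**
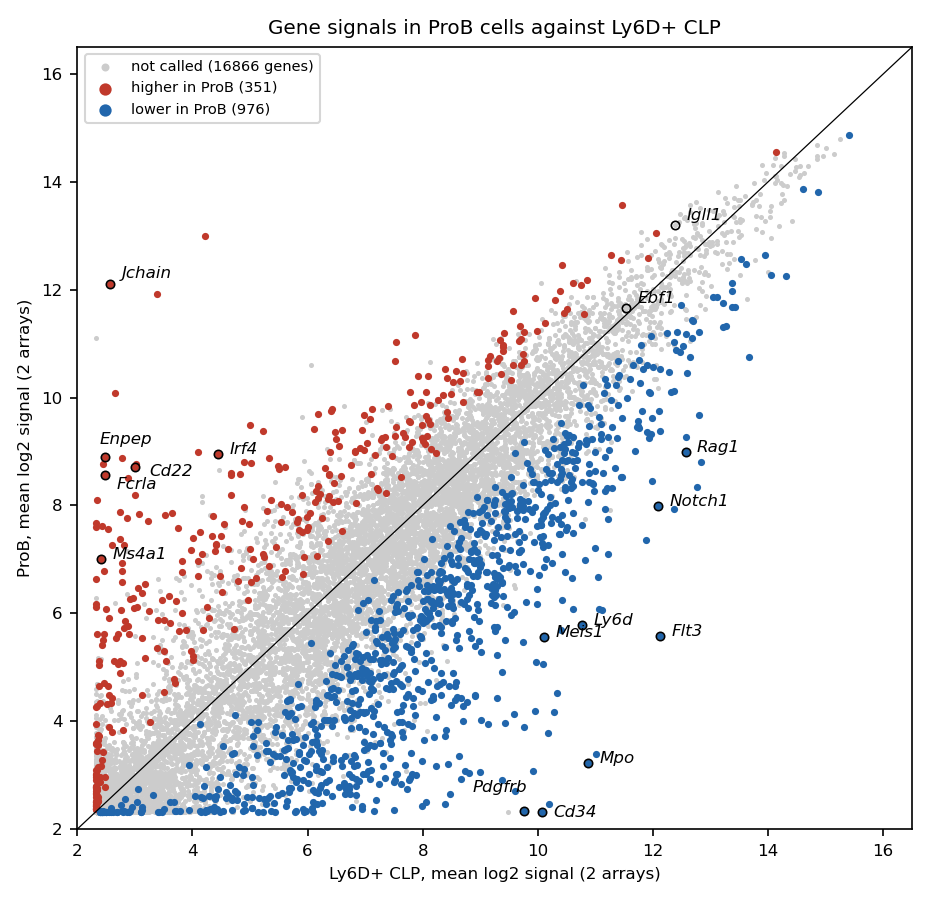
Mean log2 signal of each gene over the 2 Ly6D+ CLP arrays (horizontal axis) and over the 2 ProB arrays (vertical axis). Red points are the 351 genes called higher in ProB, blue points the 976 called lower, grey points the 16866 not called, and the line marks equal signal. Enpep, Fcrla and Jchain rise from the floor at the left edge, Cd34 and Pdgfrb drop to it at the lower edge, and Ebf1 and Igll1 lie near the line.

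All values are log2 signals of the deposited table, and a pair of values gives replicate 1 before replicate 2. The lowest value of the table, 2.32, is shared by many probe sets and is called the floor, and a group whose arrays all lay no more than 0.5 above it was taken to be at the floor. Where 1 group was there its level may lie below what the table shows, so the difference given may understate the change. Differences are ProB minus Ly6D+ CLP with their standard errors (SE) from a limma fit of all 14 arrays, and p-values are adjusted over all 18193 genes. The spread behind each SE is pooled over all groups of the fit. Fitted on the 4 arrays alone, limma called 3 genes (Cd22, Ms4a1 and Smpdl3a, the last chosen after its values were seen), and with array weights it called 368, so the counts rest on the spread shared with the other groups.

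Signals were not on exactly equal scales. Over the 8690 genes above the floor on all 4 arrays the medians were 7.18 and 7.30 in ProB and 7.53 and 7.57 in Ly6D+ CLP, a median difference of -0.21. With the medians set equal, which moved the median of all genes by 0.30, the calls split into 691 higher and 804 lower, and 46.2% were higher against 26.5% before. Quantile normalization gave 553 higher and 699 lower (44.2%). The split also turned round without ProB array 1, with 1338 higher and 791 lower (62.8% higher), and stood at 428 higher and 632 lower without ProB array 2. The excess of lower calls therefore depended on the scaling and on single ProB arrays. Over all genes, most calls in either direction did not hold without each of the 4 arrays in turn.

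The sex of the cells and the group cannot be told apart. Xist, which is transcribed from the inactive X chromosome of female cells, read 10.71 and 11.49 in ProB and 2.33 on both Ly6D+ CLP arrays. The Y-linked Eif2s3y read 2.32 on both ProB arrays, and 9.87 and 9.08 in Ly6D+ CLP. The PreB arrays and WT engrafted arrays 1 and 2 had the Ly6D+ CLP pattern, with Eif2s3y at 11.04 and 11.01 in PreB. Values in those groups are therefore given beside some of the main results. With a term for high Xist, which could be estimated only within the WT engrafted group, 70 of the 106 called genes among the 130 named by rule kept their call. With it, 7 progenitor surface receptors were called lower in place of 11. The dendritic list had 3 in place of 8, and the list of quiescence and G1 control 3 in place of 7. The pre-B receptor list and the V(D)J list each had 0 lower in place of 3, and the V(D)J list had 1 higher in place of 0. For plasma cell genes 0 were higher in place of 3, and for antibody chains 2 in place of 4. B lineage factors had 4 higher and 3 lower in place of 7 and 6. B cell surface receptors had 7 higher in place of 5, and 0 lower in place of 2. The PreB arrays, used for context, had the largest gaps of the series between 3' and 5' control probes of Actb, 7.27 and 6.71. Among the 4 ProB and Ly6D+ CLP arrays, array 2 of Ly6D+ CLP had the largest, 5.57 against 2.73 to 3.67 on the others. Without that array 1473 genes were called, 325 higher and 1148 lower.

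Among the markers given for this comparison, Enpep encodes glutamyl aminopeptidase, the antigen BP-1 of early B cells. It read 9.01 and 8.77 in ProB and 2.48 on both Ly6D+ CLP arrays, at the floor, a difference of 6.41 (SE 0.11, limma adjusted p = 3.84e-08). Fcrla, an Fc receptor-like protein kept inside B cells, read 8.01 and 9.10 against 2.46 and 2.51 (difference 6.07, SE 0.35, limma adjusted p = 7.24e-05). Cd22, an inhibitory co-receptor that binds sialic acid, read 8.67 and 8.74 against 2.998 on both (difference 5.71, SE 0.48, limma adjusted p = 0.000408). For all 3 the groups lay far apart, and Ly6D+ CLP read much as low as Ly6D- CLP, in which Enpep read 2.48 on both arrays. All 3 were also high in the groups with the other sex pattern: in PreB, Enpep read 5.78 and 6.03, Fcrla 13.30 and 13.06, and Cd22 7.86 and 8.04. One of the 2 probe sets of Cd22 and 2 of the 3 of Fcrla were called.

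The promoters of these genes and of Cd79a are shown because the 4 genes moved in the same direction and B lineage factors bind such sequences. Each runs from 250 bases before to 50 bases after the RefSeq start, 5′ to 3′ on the gene's strand, in build GRCm38.p6. Capitals mark matches on either strand to the palindromic EBF1 motif (TCCC and GGGA 2 bases apart) or to the E-box CAGGTG, which on the other strand reads CACCTG; the motifs share no letters of a match here.
Fcrla, chr1:170927534-170927833, minus strand: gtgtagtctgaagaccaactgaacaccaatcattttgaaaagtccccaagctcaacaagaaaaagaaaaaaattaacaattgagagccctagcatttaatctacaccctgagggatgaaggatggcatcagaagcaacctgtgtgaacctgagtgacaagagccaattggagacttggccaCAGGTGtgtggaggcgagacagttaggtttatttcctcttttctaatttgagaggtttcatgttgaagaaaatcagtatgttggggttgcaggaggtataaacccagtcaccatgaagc
Cd22, chr7:30878979-30879278, minus strand: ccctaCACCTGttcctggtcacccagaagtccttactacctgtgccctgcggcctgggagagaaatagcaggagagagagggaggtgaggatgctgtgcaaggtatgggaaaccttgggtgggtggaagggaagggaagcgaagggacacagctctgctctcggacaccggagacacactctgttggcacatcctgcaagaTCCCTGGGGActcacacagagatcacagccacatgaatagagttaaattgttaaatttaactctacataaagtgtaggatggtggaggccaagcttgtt
Cd79a, chr7:24897247-24897546, plus strand: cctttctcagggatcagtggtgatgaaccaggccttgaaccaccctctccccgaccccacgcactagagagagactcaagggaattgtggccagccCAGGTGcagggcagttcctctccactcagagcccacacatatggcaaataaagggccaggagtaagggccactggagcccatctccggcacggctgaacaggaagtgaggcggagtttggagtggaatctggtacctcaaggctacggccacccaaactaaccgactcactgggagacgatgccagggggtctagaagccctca
Enpep, chr3:129332700-129332999, minus strand: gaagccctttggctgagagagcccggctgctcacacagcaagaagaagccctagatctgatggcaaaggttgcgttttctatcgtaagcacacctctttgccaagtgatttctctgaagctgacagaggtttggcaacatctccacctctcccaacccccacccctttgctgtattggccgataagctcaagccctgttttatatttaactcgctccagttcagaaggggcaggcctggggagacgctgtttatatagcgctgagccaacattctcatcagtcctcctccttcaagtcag
The Cd22 promoter held the EBF1 motif as TCCCTGGGGA from base -49, counted from the start, and an E-box from base -245. The promoters of Fcrla and Cd79a held an E-box from bases -69 and -154, and neither motif matched in the Enpep window. Of all 32851 promoters in the RefSeq table, 0.904% held the EBF1 motif and 20.2% the E-box, so an E-box match is common. These matches describe letters and not binding.

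Of the B lineage transcription factors, 28 were measured, and 7 rose (25%) and 6 fell (21.4%), beside 1.93% and 5.36% of all genes. Their median difference was -0.26, beside 0.00 for all genes. Ikzf3, which encodes Aiolos, a zinc finger factor of later B cells, read 6.15 and 7.41 in ProB and lay at the floor in Ly6D+ CLP, at 2.47 and 2.45 (difference 4.32, SE 0.33, limma adjusted p = 0.000226). Id3, an inhibitor of E proteins, read 7.56 and 7.77 against 4.18 and 4.93 (difference 3.11, SE 0.32, limma adjusted p = 0.00092). Bcl6, a repressor that protects pre-B cells, read 6.56 and 6.21 against 2.93 and 3.30 (difference 3.26, SE 0.39, limma adjusted p = 0.00179). ProB and Ly6D+ CLP arrays did not overlap for any of these, nor for 33.8% of all genes. Pou2af1, the octamer coactivator OCA-B, was already at 10.50 and 10.29 in Ly6D+ CLP and reached 11.86 and 12.11 (difference 1.59, SE 0.24, limma adjusted p = 0.00557).

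Irf4, Lef1 and Spib also passed the test, but their calls ended without ProB array 2, at limma adjusted p of 0.0613, 0.112 and 0.0812. Irf4, which drives the pre-B to B transition, read 8.76 and 9.14 in ProB and 5.94 and 2.95 in Ly6D+ CLP, whose arrays lay far apart. Its difference was 4.50 (SE 0.81, limma adjusted p = 0.0121), and 3.01 without Ly6D+ CLP array 2, at limma adjusted p = 0.00752. Lef1, a WNT pathway factor of pro-B cells, read 8.04 and 9.08 against 3.23 and 6.10, and its difference of 3.89 (limma adjusted p = 0.0207) became 2.46 without Ly6D+ CLP array 1, at limma adjusted p = 0.0191. Spib, an ETS factor related to PU.1, read 8.28 and 8.43 against 6.85 and 5.51 (difference 2.18, SE 0.43, limma adjusted p = 0.0179).

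The founding factors did not pass. Ebf1 read 10.99 and 12.33 in ProB and 11.39 and 11.68 in Ly6D+ CLP, so the groups overlapped (difference 0.13, SE 0.50, limma adjusted p = 1). In Ly6D- CLP it was at 6.55 and 5.24. Pax5 was dim throughout, at 3.92 and 4.90 in ProB and 6.17 and 3.41 in Ly6D+ CLP (difference -0.38, SE 0.73, limma adjusted p = 0.998), and without Ly6D+ CLP array 1 the difference was 1.005. Pax5 also read 7.95, 7.92 and 7.57 in the engrafted cells that lack it, so its probe set does not report the deletion. Bach2, a repressor of plasma cell fate, read 9.99 and 10.29 against 8.57 and 8.72 and was not called (limma adjusted p = 0.17).

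The 6 factors that fell were Irf8, Spi1, Cux1, Klf3, Myb and Aff3. Irf8, an interferon regulatory factor of B, dendritic and monocytic cells, read 9.95 and 10.26 in ProB against 12.07 and 12.57 (difference -2.21, SE 0.22, limma adjusted p = 0.000829). Spi1, encoding PU.1, which sets myeloid against lymphoid fate by its dose, read 4.69 and 5.08 against 7.28 and 6.89 (difference -2.20, SE 0.22, limma adjusted p = 0.000903). In PreB, Spi1 was at 6.03 and 6.39, and in WT engrafted cells at 6.90, 7.04 and 7.31. Irf8 read 12.12 and 11.80 in PreB and 11.67, 12.02 and 11.61 in WT engrafted cells, near its Ly6D+ CLP level. Cux1 and Klf3, a homeodomain factor and a zinc finger repressor, fell by 2.86 and 3.82 (limma adjusted p = 0.00092 and 0.0111), and 3 of the 9 probe sets of Cux1 were called.

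**Figure D2:**
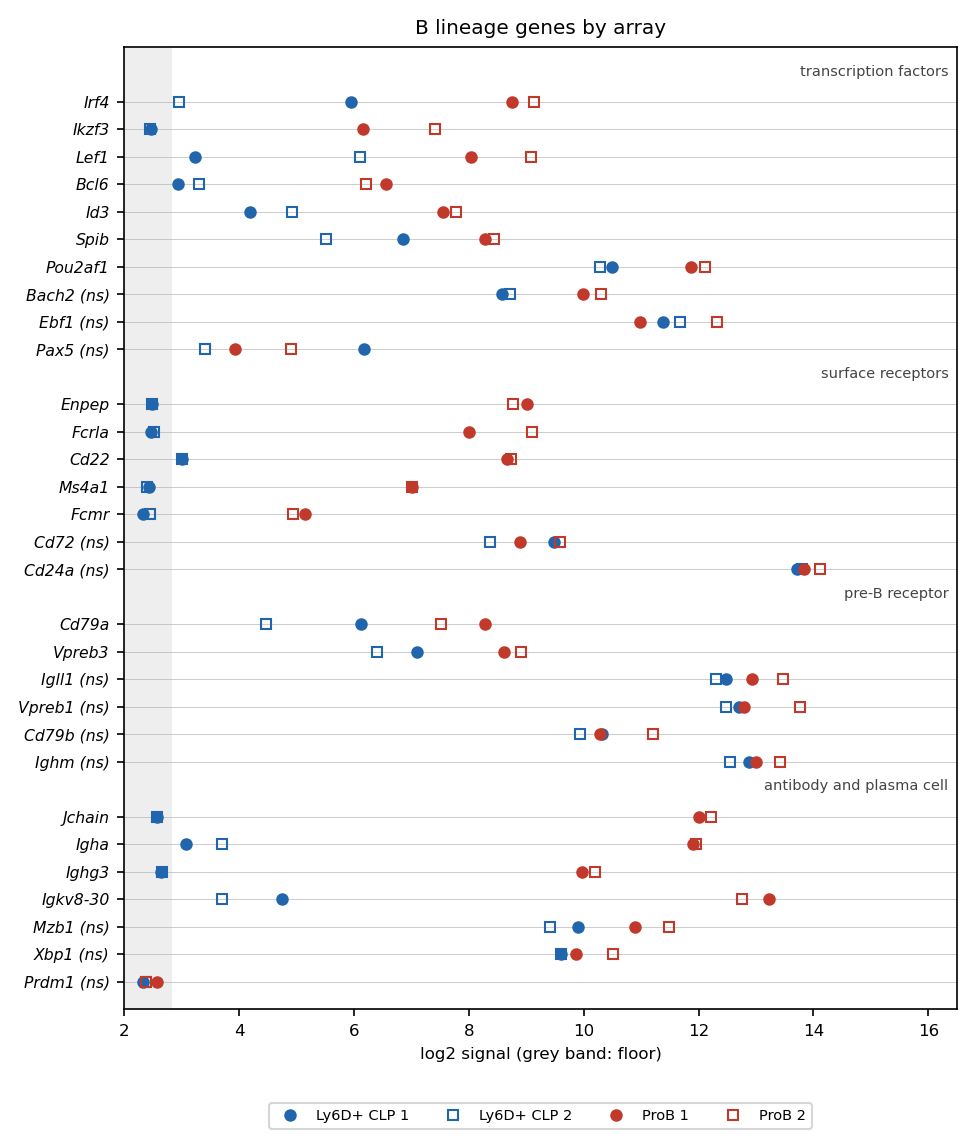
Log2 signal of B lineage genes (horizontal axis) on each Ly6D+ CLP array (blue) and ProB array (red), with circles for replicate 1, squares for replicate 2, the floor shaded grey and (ns) after genes that were not called. Enpep, Fcrla, Ms4a1, Ikzf3, Jchain and Ighg3 leave the floor, while Ebf1, Igll1, Vpreb1, Cd79b and the brightest probe set of Ighm are already above 9 in both groups.

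Among 27 measured surface receptors of B cells, 5 rose (18.5%) and 2 fell (7.41%), beside 1.93% and 5.36% of all genes. The other 20 did not pass, and the median difference was 0.23. The calls of the 5 that rose held without each of the 4 arrays in turn. Beside Enpep, Fcrla and Cd22 these were Ms4a1, encoding CD20, at 7.01 and 7.02 in ProB against 2.42 and 2.39 (difference 4.60, SE 0.46, limma adjusted p = 0.000866), and Fcmr, the IgM Fc receptor, at 5.15 and 4.93 against 2.32 and 2.44 (difference 2.66, SE 0.27, limma adjusted p = 0.000903). Both left the floor, and both stood higher still in WT engrafted cells, where Ms4a1 read 12.41, 12.23 and 10.90. Cd72, a B cell co-receptor, overlapped between groups at 8.89 and 9.58 against 9.49 and 8.36, and Cd24a, the heat-stable antigen, read 13.84 and 14.12 against 13.71 and 13.80; neither was called. Ly86, which encodes MD-1, a partner of the receptor RP105, fell by 2.91 (SE 0.41, limma adjusted p = 0.00366).

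For the pre-B receptor and its signalling chain 22 genes were measured, with a median of 0.30. Of them 2 rose (Vpreb3 and Cd79a) and 3 fell (Syk, Plcg2 and Pik3cd). The shares were 9.09% and 13.6%, beside 1.93% and 5.36% of all genes. Syk fell by 1.22 on its brightest probe set, while another of its probe sets was not called, with a difference of 0.18. Vpreb3, a chaperone of newly made heavy chains, read 8.61 and 8.90 in ProB against 7.09 and 6.40 (difference 2.01, SE 0.30, limma adjusted p = 0.00511). Cd79a, the Igα signalling subunit, read 8.29 and 7.52 against 6.13 and 4.47 (difference 2.60, SE 0.49, limma adjusted p = 0.0147), and its call ended without ProB array 1, at limma adjusted p = 0.0527. The groups did not overlap for either gene, nor for 33.8% of all genes.

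The surrogate light chains and Cd79b were high before the ProB stage. Igll1, encoding λ5, read 12.93 and 13.47 in ProB and 12.47 and 12.31 in Ly6D+ CLP (difference 0.81, SE 0.44, limma adjusted p = 0.33). In Ly6D- CLP it read 4.61 and 4.02, so the gap lay between the CLP fractions. Vpreb1 read 12.80 and 13.77 against 12.71 and 12.47, and Cd79b, the Igβ subunit, 10.28 and 11.21 against 10.31 and 9.93, and neither passed (limma adjusted p = 0.475 and 0.385).

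For Ighm, the mu heavy chain, the probe sets disagreed. The brightest read 13.00 and 13.43 in ProB against 12.87 and 12.54 and did not pass (limma adjusted p = 0.389). Of its 11 probe sets 5 were called higher, and 4 of these rose from the floor in Ly6D+ CLP: one went from 2.37 on both arrays to 11.52 and 11.66 (difference 9.22), another from 2.59 on both to 11.40 and 11.60 (difference 8.91), and others rose by 8.11 and 6.16. The fifth rose by 7.31, from 4.69 on both arrays. Which form of the transcript each probe set reads was not examined.

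Among signalling genes downstream of the receptor, Plcg2, a phospholipase, fell by 1.28 (limma adjusted p = 0.00649). Pik3cd, a lipid kinase subunit, fell by 2.61 on its brightest probe set (limma adjusted p = 0.0026), the only 1 of 6 that was called. Another of its probe sets read 10.63 and 5.84 in ProB against 3.25 and 3.95, and with the mean of the probe sets the difference was -0.21 (limma adjusted p = 0.81). Blnk, their adaptor, was not called at 9.95 and 10.80 against 11.73 and 11.26.

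Of 6 measured antibody genes 4 rose (Igha, Ighg3, Iglv1 and Jchain), or 66.7% beside 1.93% of all genes. The median difference of the 6, 6.29, was the highest of the lists. Igha and Ighg3, the constant regions of IgA and IgG3, read 11.91 and 11.95, and 9.96 and 10.19, in ProB. In Ly6D+ CLP they read 3.07 and 3.69, and 2.64 and 2.66 (differences 8.54 and 7.43, limma adjusted p = 0.0034 and 0.00011). Iglv1, a lambda variable segment, read 9.32 and 6.45 against 3.04 and 2.43. Igkv8-30, a kappa variable segment that is not in this list, read 13.23 and 12.75 against 4.75 and 3.70 (difference 8.77, SE 0.88, limma adjusted p = 0.000866). Probe sets of such families can read related genes, and 1 of the 4 probe sets of Ighg3 was called.

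Jchain, which joins secreted IgM and IgA into polymers, had the largest rise of all called genes, from 2.57 on both Ly6D+ CLP arrays to 12.00 and 12.22 (difference 9.54, SE 1.77, limma adjusted p = 0.0138). Its call ended without ProB array 2, at limma adjusted p = 0.0625. Jchain and Igha were not shared evenly with later stages: PreB array 2 read 8.64 and 8.12 for them and PreB array 3 read 2.59 and 3.36. The 2 genes parted in the engrafted cells. Jchain read 11.78, 11.99 and 12.54 in Pax5KO engrafted cells and 2.93, 6.27 and 6.41 in WT engrafted cells. Igha read 3.14, 3.28 and 3.14, and 3.15, 3.14 and 3.75, in the same groups. Ighg3 was at the floor in WT engrafted cells, at 2.64, 2.66 and 2.66, whereas Igkv8-30 read 12.70, 12.71 and 12.32 there.

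Plasma cells make the same transcripts, and 11 plasma cell genes were measured, among them Jchain, which the antibody list also holds. Of the plasma cell list 27.3% were called higher, beside 1.93% of all genes. The mean of this list was 6.82 and 6.89 in ProB and 5.41 and 5.20 in Ly6D+ CLP, and 3 of 11 were called higher: Jchain, Irf4 and Tnfrsf17, whose difference of 0.19 lay within the floor and whose call ended without either Ly6D+ CLP array (limma adjusted p = 0.0991 and 0.117). Of the defining factors, Prdm1, encoding BLIMP1, was at the floor on both sides, at 2.57 and 2.37 in ProB. Sdc1, the plasma cell surface marker CD138, was not called at 7.95 and 8.63 in ProB against 10.11 and 9.02. Xbp1 and Mzb1, a secretory factor and an endoplasmic reticulum chaperone, were not called either, at 9.87 and 10.51 against 9.60 and 9.61, and 10.89 and 11.48 against 9.90 and 9.42. The part of plasma cells in the antibody signals was not tested.

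Of 30 mitosis genes 7 rose (23.3%, beside 1.93% of all genes) and none fell, with a median of 1.04. With equal array medians 14 rose. With the term for high Xist 2 rose, Plk1 and Cenpf. Plk1, the kinase that drives entry into mitosis, read 9.73 and 9.83 in ProB against 6.84 and 6.02 (difference 3.35, SE 0.32, limma adjusted p = 0.000676). Tpx2, Cenpf and Cdca8, which build the spindle, the kinetochore and the chromosomal passenger complex, rose by 2.67, 2.30 and 1.37 (limma adjusted p = 0.00266, 0.00513 and 0.00836). Kif11, a spindle motor, rose by 2.45 (limma adjusted p = 0.015), and its call ended without Ly6D+ CLP array 1, at limma adjusted p = 0.0523.

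Of 31 DNA replication genes 4 rose (E2f2, Ccne2, Orc1 and Rfc3) and none fell, with a median of 0.42, and without ProB array 2 there was 1 called higher, E2f2, and 1 lower, Cdt1. The 4 that rose with all arrays were 12.9% of the list, beside 1.93% of all genes. E2f2, an S phase transcription factor, read 9.43 and 9.50 against 7.38 and 7.68 (difference 1.93, SE 0.31, limma adjusted p = 0.00697). Ccne2, cyclin E2, rose by 2.15 (limma adjusted p = 0.0128), and its call ended without ProB array 2, at limma adjusted p = 0.0729. Mki67, the proliferation marker Ki-67, was at 13.50 and 13.65 against 12.39 and 12.90 and was not called (limma adjusted p = 0.236). The marker was bright in both groups. The list of quiescence and G1 control mixes inhibitors with G1 cyclins and their kinases. Of its 23 measured genes 7 fell (30.4%, beside 5.36% of all genes) and none rose. Among the 7, Foxo3 and Mxd4, a forkhead factor and a MYC antagonist, fell by 2.41 and 3.32 (limma adjusted p = 0.00121 and 0.00049). The calls of 3 of these 7 held without each array in turn.

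Of 25 genes of cholesterol and fatty acid synthesis 2 rose, or 8% beside 1.93% of all genes: Scd1, a fatty acid desaturase, from 2.33 and 2.74 to 7.67 and 7.45 (difference 5.02, SE 0.45, limma adjusted p = 0.000532), and Mvk, mevalonate kinase, by 1.91 (limma adjusted p = 0.000554). Among 17 glucose uptake and glycolysis genes 2 fell, Slc2a3 and Pdk1, or 11.8% beside 5.36%, but the list median was 0.05. With quantile normalization 2 of the 17 were called higher and 1 lower, and with equal array medians 2 higher and 2 lower. Pdk1, a pyruvate dehydrogenase kinase, fell by 1.33 (SE 0.13, limma adjusted p = 0.000903).

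The other large rises came from genes outside the lists. Bcat1, a branched-chain aminotransferase, read 8.48 and 9.05 in ProB against 2.32 and 2.56 (difference 6.33, limma adjusted p = 3.47e-05), and Tnfrsf19, a TNF receptor family member, 8.80 and 8.97 against 2.65 and 2.90 (difference 6.11, limma adjusted p = 0.00036). Slpi, a secreted protease inhibitor, read 7.91 and 9.12 against 2.90 and 2.85 (difference 5.64, limma adjusted p = 0.0011), and was lower again at 4.87 and 5.97 in PreB and 3.06, 3.20 and 4.74 in WT engrafted cells. Klhl32, a kelch family member, read 7.88 and 7.33 against 2.32 on both, and was at 2.41 and 2.32 in PreB and at 5.26, 4.83 and 6.31 in WT engrafted cells. Gpr155 and Ublcp1, a membrane protein and a phosphatase, rose by 5.35 and 5.76 (limma adjusted p = 0.0019 and 0.00211), with Ly6D+ CLP at or near the floor. The calls of another pair of the 15 did not hold throughout: Pfn2, a profilin, rose by 5.76 but not without ProB array 2 (limma adjusted p = 0.0582), and Hspa1b, a heat shock protein, rose by 5.20 with the call ending without ProB array 2 or either Ly6D+ CLP array (limma adjusted p = 0.0888, 0.0524 and 0.0552).

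Of 32 measured surface receptors of progenitors, 11 fell and none rose, beside 5.36% of all genes called lower, and the median difference was -1.44. The calls of 9 of the 11 held without each array in turn. Cd34, the sialomucin of stem cells and progenitors, read 9.45 and 10.69 in Ly6D+ CLP and 2.32 on both ProB arrays, the lowest value of the table (difference -7.75, SE 0.31, limma adjusted p = 6.91e-06). It was at 2.32 on every PreB, WT engrafted and Pax5KO engrafted array as well, whatever their sex pattern. Flt3, the receptor tyrosine kinase of lymphoid progenitors, read 11.91 and 12.33 against 5.99 and 5.16 (difference -6.55, SE 0.40, limma adjusted p = 9.12e-05), which left it above the floor in ProB. In WT engrafted cells it had gone down to 3.66, 3.63 and 3.39.

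Cd27, a TNF receptor family member of lymphoid progenitors, read 8.72 and 9.28 in Ly6D+ CLP and 3.09 and 3.01 in ProB (difference -5.95, SE 0.34, limma adjusted p = 7.24e-05). Csf2rb, the shared beta chain of the receptors for IL-3, IL-5 and GM-CSF, read 8.75 and 9.26 against 4.57 and 3.48 (difference -4.98, SE 0.41, limma adjusted p = 0.000348). Il6st, encoding gp130, the signalling chain for IL-6, fell by 4.16 (SE 0.51, limma adjusted p = 0.00199). The adhesion receptors Adgrl4 and Adgrg3 fell by 4.51 and 4.42 (limma adjusted p = 0.000107 and 0.0059), and Adgrg3 stayed at 8.12 and 8.56 in ProB. Egfl7, a secreted vascular protein, fell by 2.47 (SE 0.44, limma adjusted p = 0.0114).

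Of 36 stem and progenitor transcription factors 12 fell and none rose, with a median of -0.88, and the calls of 8 held without each array in turn. The 12 were 33.3% of the list, beside 5.36% of all genes. Nfe2, a factor of platelet and red cell precursors, read 8.01 and 8.45 in Ly6D+ CLP against 3.24 and 3.12 (difference -5.05, SE 0.55, limma adjusted p = 0.00112). Lmo2, a bridge in stem cell transcription complexes, read 10.10 and 10.38 against 6.79 and 7.06 (difference -3.32, SE 0.24, limma adjusted p = 0.0002). Meis1, a cofactor of HOX proteins, read 10.42 and 9.80 against 5.89 and 5.24 (difference -4.54, SE 0.62, limma adjusted p = 0.0034). For each the groups were separate, as for 33.8% of all genes, and ProB kept a level above the floor.

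Id2, an inhibitor of E proteins needed for innate lymphoid cells, read 8.79 and 9.01 in Ly6D+ CLP and 4.72 and 4.26 in ProB, while Id3 rose as given above (Id2 difference -4.41, SE 0.46, limma adjusted p = 0.00092). PreB held Id2 at 12.30 and 12.60, above both. Cebpb, a myeloid factor, went from 4.85 and 5.44 to 2.32 on both ProB arrays (difference -2.82, SE 0.32, limma adjusted p = 0.0014). Etv6, an ETS repressor, fell by 2.97 and Mycn, a MYC relative, fell by 2.17 (limma adjusted p = 0.00091 and 0.00344). Satb1, a chromatin organiser of lymphoid progenitors, fell by 3.52 (limma adjusted p = 0.0167), and its call ended without ProB array 2 or Ly6D+ CLP array 1 (limma adjusted p = 0.0672 and 0.0542). Hoxa9, a homeobox factor, read 10.55 and 11.07 against 7.55 and 7.95 and did not pass (SE 1.21, limma adjusted p = 0.22).

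**Figure D3:**
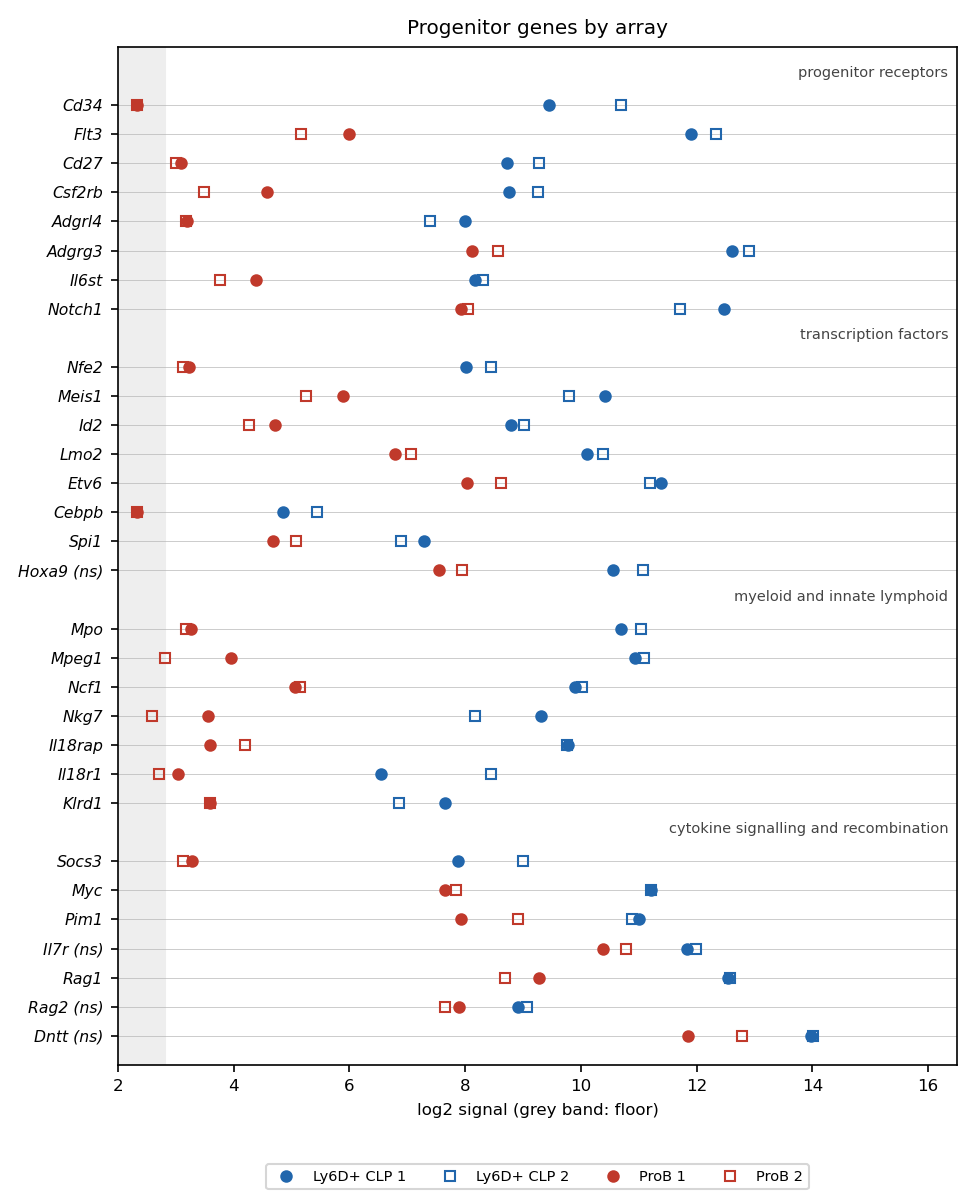
Log2 signal of progenitor, myeloid, innate lymphoid and cytokine signalling genes (horizontal axis) on each Ly6D+ CLP array (blue) and ProB array (red), with circles for replicate 1, squares for replicate 2, the floor shaded grey and (ns) after genes that were not called. Cd34 and Cebpb reach the floor on both ProB arrays, while Flt3, Adgrg3, Notch1 and Lmo2 fall but stay above it.

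Of 32 granulocyte and monocyte genes 4 fell (Mpo, Ncf1, Cebpb and Fcer1g), or 12.5% beside 5.36% of all genes, and none rose. The list's mean was 3.24 and 3.19 in ProB against 4.20 on both Ly6D+ CLP arrays. Mpo, myeloperoxidase of granule precursors, read 10.70 and 11.04 in Ly6D+ CLP and 3.27 and 3.18 in ProB (difference -7.64, SE 1.32, limma adjusted p = 0.00988). Its level varied widely in WT engrafted cells, at 4.31, 7.91 and 9.39, and was 7.84 and 6.56 in PreB. Ncf1, a subunit of the phagocyte oxidase, read 9.91 and 10.02 against 5.06 and 5.14 (difference -4.86, SE 0.62, limma adjusted p = 0.00243). Mpeg1, perforin-2 of macrophages, read 10.94 and 11.10 against 3.95 and 2.82 (difference -7.63, SE 0.54, limma adjusted p = 0.000159). It was higher again in PreB, at 9.64 and 9.21, and read 5.76, 5.30 and 4.61 in WT engrafted cells. In bulk samples such as these, fewer cells of a type and less RNA per cell cannot be told apart.

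Of 27 natural killer (NK) and innate lymphoid genes 7 fell (25.9%, beside 5.36% of all genes) and none rose. On both sides 17 lay at the floor. Il18rap and Il18r1, the chains of the IL-18 receptor, read 9.78 and 9.75, and 6.55 and 8.45, in Ly6D+ CLP. In ProB they read 3.59 and 4.19, and 3.04 and 2.72 (differences -5.87 and -4.62, limma adjusted p = 0.00049 and 0.00269). Nkg7, a granule membrane protein, read 9.32 and 8.17 against 3.56 and 2.59 (difference -5.67, SE 0.70, limma adjusted p = 0.00198). Klrd1, the NK receptor CD94, fell by 3.67, and Fcer1g, the Fc receptor gamma chain, by 3.44 (limma adjusted p = 0.00254 and 0.00277).

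Among 25 genes of the T lineage and Notch pathway 3 fell (12%, beside 5.36% of all genes) and 12 lay at the floor on both sides. Notch1, the receptor that directs progenitors to the T lineage, read 12.47 and 11.71 in Ly6D+ CLP and 7.92 and 8.05 in ProB (difference -4.10, SE 0.23, limma adjusted p = 6.69e-05). Cd247, the CD3 zeta chain, read 6.40 and 7.03 against 2.42 and 3.16 (difference -3.93, SE 0.37, limma adjusted p = 0.000617), and Dtx3l, a Deltex-like ubiquitin ligase, fell by 2.83 (SE 0.19, limma adjusted p = 0.000138). The dendritic list of 21 had 8 genes that fell and 1, Spib, that rose, and the calls of 3 of the 8 held without each array in turn. The 8 that fell were 38.1% of the dendritic list and Spib 4.76%, beside 5.36% and 1.93% of all genes. Of 20 erythroid and megakaryocyte genes 1 fell (Gata1), or 5%, near the 5.36% of all genes, and 11 lay at the floor on both sides.

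IL-7 receptor signalling, measured over 20 genes, had 4 that fell (Socs3, Myc, Mycn and Pim1) and none that rose, and a median of -0.84. The 4 were 20%, beside 5.36% of all genes. Il7r itself read 11.83 and 12.00 in Ly6D+ CLP and 10.38 and 10.77 in ProB, without overlap, but did not pass (difference -1.34, SE 0.39, limma adjusted p = 0.0842). Socs3, a feedback inhibitor of STAT signalling, read 7.88 and 9.001 against 3.28 and 3.12 (difference -5.24, SE 0.66, limma adjusted p = 0.00216). Myc, a transcription factor of cell growth, read 11.21 and 11.22 against 7.65 and 7.85 (difference -3.47, SE 0.44, limma adjusted p = 0.00221). Pim1, a survival kinase, fell by 2.53 (SE 0.42, limma adjusted p = 0.00887). The survival gene Bcl2 was not called at 9.26 and 8.17 against 6.49 and 6.38 (limma adjusted p = 0.138), while 2 of its 5 probe sets were called lower.

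For V(D)J recombination and end joining 14 genes were measured, of which 3 fell (Rag1, Prkdc and Xrcc6), and none of these calls held without each array in turn. The 3 were 21.4%, beside 5.36% of all genes. Rag1, the recombinase subunit, read 12.55 and 12.58 in Ly6D+ CLP and 9.28 and 8.70 in ProB (difference -3.57, SE 0.80, limma adjusted p = 0.0313). Leaving out any 1 of the 4 arrays ended its call, with limma adjusted p from 0.0531 to 0.142, at differences from -3.28 to -3.87. Rag2, its partner, read 8.92 and 9.06 against 7.89 and 7.65 (limma adjusted p = 0.4), and Dntt, the terminal transferase that adds bases at joints, 13.98 and 14.02 against 11.86 and 12.78 (limma adjusted p = 0.126). Neither was called, although the arrays did not overlap for either, as for 33.8% of all genes. Rag1 was at 12.01 and 12.08 in PreB, so its level was lower in ProB than in the stages on either side in mean value.

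Of 15 genes of MHC class II presentation 2 fell (13.3%, beside 5.36% of all genes), with a median of -0.83. H2-DMa, which loads peptides, read 10.55 and 10.12 in Ly6D+ CLP and 5.17 and 3.88 in ProB (difference -5.81, SE 0.40, limma adjusted p = 0.000137). H2-Ob, which restrains that loading, read 12.25 and 12.50 against 8.17 and 7.72 (difference -4.43, SE 0.37, limma adjusted p = 0.000372). The class II chain gene H2-Aa overlapped at 7.83 and 8.91 against 7.33 and 8.02. Ly6d fell by 4.99 (SE 0.55, limma adjusted p = 0.00121), at 6.55 and 5.02 against 11.25 and 10.30; since Ly6D was used to sort the progenitors, this is a check of the gate and not a finding.

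Of 21 chemokine and homing receptors 6 fell and none rose, but with the term for high Xist 2 were lower (Selplg and Gpr171) and 2 higher (Ccr6 and S1pr1), and 4 of the 6 calls held without each array in turn. The 6 that fell were 28.6%, beside 5.36% of all genes. Among the 6 was S1pr3, a sphingosine-1-phosphate receptor, which fell by 5.81. Gpr171 fell by 3.79, P2ry14, a receptor for UDP-sugars, fell by 3.71, and Selplg, the selectin ligand PSGL-1, fell by 2.12 (limma adjusted p = 0.00266, 0.00112, 0.00423 and 0.00861). Of 30 integrins and adhesion genes 4 fell (13.3%, beside 5.36% of all genes): Itgal, Emb, Icam1 and Cd47. The calls of 2 of the 4 held without each array in turn, and none of the 30 was called with the term for high Xist. Itgal, the LFA-1 alpha chain, fell by 3.54 and Emb, encoding embigin, fell by 3.56 (limma adjusted p = 0.0054 and 0.00392). All 6 of these genes had separate arrays in the groups, as had 33.8% of all genes.

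Of the 8 GIMAP GTPases, proteins of lymphocyte survival, 4 fell (Gimap6, Gimap7, Gimap8 and Gimap9), or 50% beside 5.36% of all genes. The median difference was -2.54. Gimap9 read 9.60 and 9.18 against 7.05 and 6.63 (difference -2.55, SE 0.20, limma adjusted p = 0.000307). Gimap6 fell by 3.25 and Gimap8 by 4.12 (limma adjusted p = 0.00953 and 0.0305), but the call of Gimap6 ended without ProB array 2 (limma adjusted p = 0.0539) and that of Gimap8 when any 1 of the 4 arrays was left out (limma adjusted p from 0.0806 to 0.0941). Without ProB array 2, 2 of the 8 were called, Gimap7 and Gimap9, and with the term for high Xist 1 was, Gimap9.

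Interferon-induced genes had 7 of 23 members lower and none higher, with a median of -1.52, and 2 of the 7 calls held without each array in turn. These are Rsad2, encoding viperin, and Gbp3, a guanylate-binding protein, which fell by 3.93 and 2.33 (limma adjusted p = 0.00794 and 0.00585). The 7 were 30.4% of the list, beside 5.36% of all genes. Without ProB array 2 there were 2 called, and with the term for high Xist there were none. Immediate early genes, which respond within minutes to stimulation or handling, had 6 of 26 lower (23.1%, beside 5.36% of all genes) and none higher. Their median was -1.02. Of these calls 3 held without each array in turn. With quantile normalization or equal medians 4 genes were called lower, without either ProB array 3 were, and with the term for high Xist Junb was lower and Egr3 higher. Junb, an AP-1 subunit, read 6.99 and 7.09 in Ly6D+ CLP and 3.66 and 2.84 in ProB (difference -3.79, SE 0.28, limma adjusted p = 0.000181).

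Stromal and endothelial cells share the marrow, and of 19 of their genes 13 lay at the floor on both sides. Of the 19, 2 rose (Sparc and Alpl) and 1 fell, 10.5% and 5.26% beside 1.93% and 5.36% of all genes. The list's mean was 2.70 and 2.79 in ProB and 2.92 and 2.999 in Ly6D+ CLP. The 1 that fell, Pdgfrb, a growth factor receptor of mesenchymal cells, was among the 15 largest falls, from 9.31 and 10.22 to 2.32 and 2.34 (difference -7.43, SE 0.45, limma adjusted p = 8.15e-05). It read 9.03 and 10.47 in Ly6D- CLP.

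The remaining large falls were of genes outside the lists. Gm4047 went from 10.29 and 10.09 to 2.33 and 2.62 (difference -7.72, SE 0.17, limma adjusted p = 1.21e-07). Ptger2, a prostaglandin E2 receptor, and Kcng1, a potassium channel subunit, fell by 6.90 and 6.83 (limma adjusted p = 0.000903 and 4.95e-06), to 2.67 and 2.75, and 3.11 and 3.05. Mn1, a transcription cofactor, fell to the floor at 2.46 on both arrays, a difference of -5.93 (limma adjusted p = 8.61e-05). Chdh, choline dehydrogenase, Cmah, which modifies sialic acid, and Ptpre, a tyrosine phosphatase, fell by 6.46, 6.39 and 6.11 (limma adjusted p = 0.00092, 0.000676 and 0.00152). For Cmah 2 of the 6 probe sets were called. Cmah was higher again at 8.49 and 8.20 in PreB and 8.16, 8.41 and 6.92 in WT engrafted cells.

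**Figure D4:**
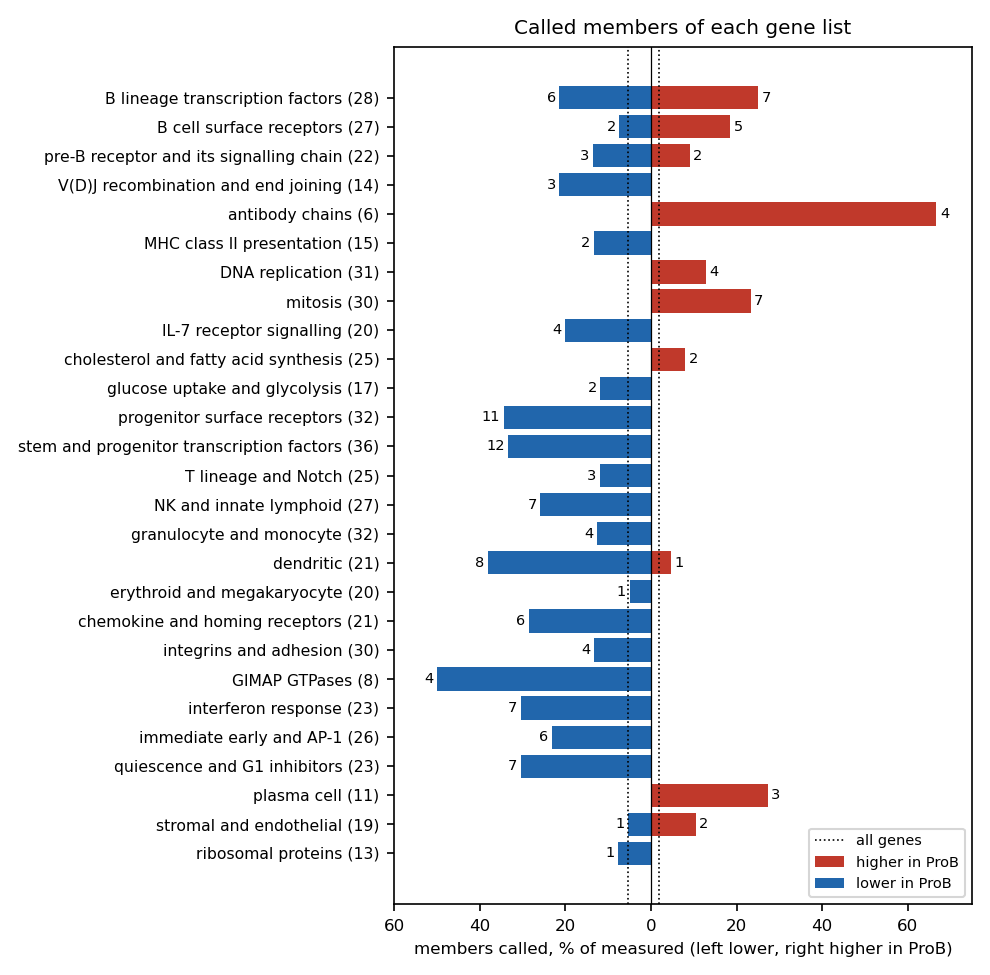
Share of the measured members of each gene list (number in brackets) called higher (red, to the right) or lower (blue, to the left) in ProB than in Ly6D+ CLP, in percent, with the number called beside each bar and dotted lines at the 1.93% and 5.36% of all genes. Antibody chains, plasma cell genes, B lineage factors and mitosis genes extend furthest among the gains, and GIMAP GTPases, dendritic genes, progenitor receptors and progenitor factors among the losses.

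Many of these changes crossed the floor. In all 70 called genes left the floor, being at it in Ly6D+ CLP and above it in ProB, and 102 reached it in ProB. These counts moved with single arrays: 455 left it without ProB array 1 and 122 without ProB array 2, and 309 and 257 reached it without Ly6D+ CLP arrays 1 and 2, so the shares that follow describe the 70 and the 102 of the fit with all arrays. Of the 102, 79 were at the floor in PreB too and 85 in WT engrafted cells (77.5% and 83.3%), beside 8.87% and 7.97% of all genes above the floor in Ly6D+ CLP, and 71 were above it in Ly6D- CLP. Of the 70, 56 were at the floor in Ly6D- CLP, 40 were above it in PreB and 42 in WT engrafted cells (57.1% and 60%), beside 9.49% and 7.48% of all genes at the floor in Ly6D+ CLP. A further 23 of the 70 were at the floor in both PreB and WT engrafted cells, so they were seen above it in ProB and in neither later group. The 102 and the 70 were picked by their level in ProB, and the genes behind the shares of all genes were not. PreB and WT engrafted arrays also entered the pooled spread behind the calls. The gap to the shares of all genes is therefore not a test. Another 41 called genes lay at the floor on both sides and carry no fold.

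**Figure D5:**
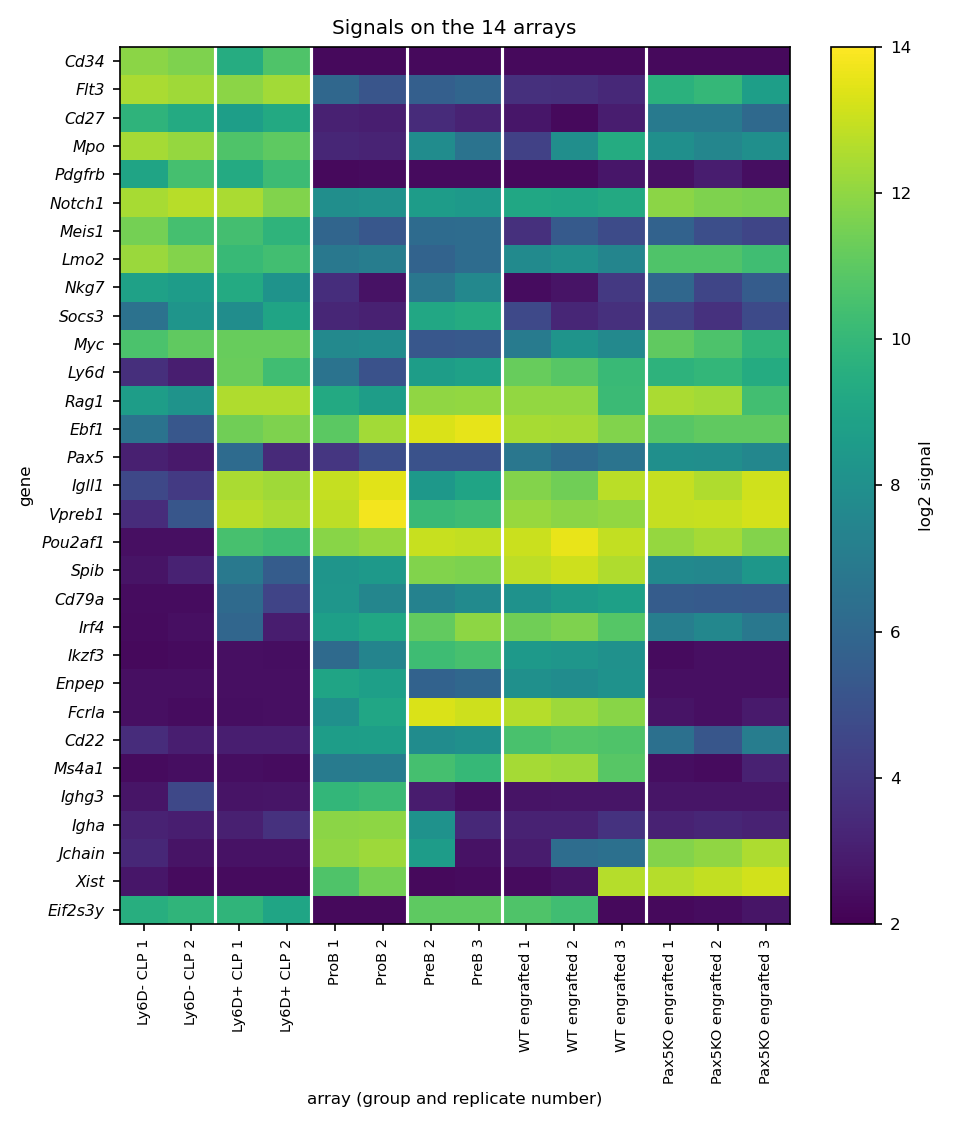
Log2 signal (colour scale) of 31 genes (vertical axis) on each of the 14 arrays (horizontal axis), with white lines between the groups. Cd34 goes dark from ProB onward, Igll1, Vpreb1 and Ebf1 are bright from Ly6D+ CLP onward, Enpep, Fcrla, Cd22 and Ms4a1 brighten at ProB, Ighg3 is bright in ProB alone among the groups shown, and Xist and Eif2s3y at the bottom show which arrays carry each sex pattern.

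WT engrafted cells against Ly6D- CLP formed a second comparison of B lineage cells with progenitors that used none of these 4 arrays, although it came from the same fit. There 1797 genes (9.88%) were called, 826 higher (4.54%) and 971 lower (5.34%). Of the 351 genes higher in ProB, 138 (39.3%) were also higher in WT engrafted cells, which is 16.7% of the 826, and 2 were lower. Of the 976 lower in ProB, 399 (40.9%) were also lower there, which is 41.1% of the 971, and 29 were higher. Cd34, Flt3, Enpep, Fcrla and Cd22 moved the same way in both comparisons. The 31 genes called in opposite directions were chosen for that, so no test of the difference is given, and they include Rag1 and the antiproliferative gene Btg2, which read 4.36 and 4.13 in ProB, 7.05 and 7.17 in Ly6D+ CLP and 9.04, 9.05 and 8.74 in WT engrafted cells.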

How the data were processed

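The deposited table gives log2 signals of 45101 probe sets on an Affymetrix 3' array for 14 samples of total RNA; the submitters' processing notes name GCRMA, RMA and limma, and neither which of them made it nor a version is given in the sources used here. The values were used as deposited, with no detection call and no filter. Names came from the platform annotation updated through RefSeq (GRCm38.p6): 34945 probe sets had 1 symbol (34741 matched by gene ID), 932 carried several, 9160 none and 64 were controls. Each gene was read from the probe set brightest on average, and 9010 genes had more than 1. limma 3.58.1 in R 4.3.3 (lmFit, eBayes) was fitted to 6 group means over 14 arrays (residual degrees of freedom 8), with two-sided tests and Benjamini-Hochberg adjustment over all genes, calling under 0.05 with no minimum fold, and the script was tested on simulated data. Where separate cultures or mice are not documented beyond the titles, p-values measure the spread between arrays, and the number of arrays limits the precision. Arrays were not paired by replicate number, since the labels do not say that it marks a shared animal or batch. The correlation of same-numbered deviations was -0.05. With 2 arrays a group this is a single comparison, which cannot show whether the numbers pair the arrays. Named genes were the 15 largest rises and 15 largest falls among called genes, the given markers, and list members by size of difference or, where lists are ordered by role, every role described. Members, lists and tests were chosen with earlier results of these data known. Alternatives covered the arrays fitted, array weights, normalization, low-value filters, probe set choice, a replicate block, an Xist term, the floor's width and leaving out each array.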

Additional observations from a re-analysis of the deposited data

Results flagged for a closer look

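The change from Ly6D+ CLP to ProB was set against the change from Ly6D- CLP to WT engrafted cells, 2 comparisons that share no arrays, and 6 of the genes named here were called in opposite directions. They were chosen for that, so the difference between the changes is given as a size, with no test. Ly6d, a sort marker, differed most, by -12.43 on the log2 scale (-4.99 against 7.44), and it defines the Ly6D- CLP used in the second comparison. Rag1 differed by -6.57 (-3.57 against 2.996), and Klf2, a factor of lymphocyte quiescence and homing, by -6.38 (-2.14 against 4.25). Btg2 and the cell cycle inhibitor Cdkn1a differed by -4.30 and -3.31. Syk, a kinase of B cell receptor signalling, differed by -3.64 (-1.22 against 2.43) on its brightest probe set. Another Syk probe set was not called between ProB and Ly6D+ CLP, at 8.43 and 8.36 against 8.48 and 7.95. The calls of Rag1, Klf2 and Syk between ProB and Ly6D+ CLP ended when single arrays were left out, with limma adjusted p up to 0.142, 0.118 and 0.115.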

How the results depend on the processing

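Named genes were chosen in part for large differences in these data, so their kept calls and the counts of called genes are not like measures. Fitted on the 4 arrays alone, limma called 3 genes (2 higher, 1 lower) and 22 probe sets, and 2 of the 106 named calls remained. With array weights it called 368 genes (88 higher, 280 lower), 448 probe sets and, in the second comparison, 1013, and 63 of 106 named calls were kept. With a term for high Xist it called 693 (148 higher, 545 lower) and 1001 probe sets, and kept 70. Genes called higher numbered 553 after quantile normalization, 691 with equal medians and 531 as single probe sets. Leaving out 1 array gave 1060 (ProB array 2) to 2129 (ProB array 1) genes, 325 to 1338 higher, 632 to 1487 lower, and kept 92 to 101 named calls. Over the same fits 1598 to 3291 probe sets were called, 73 to 455 genes left the floor and 79 to 309 reached it; with the floor within 0.1 or 1, 67 or 155 reached it. Of the 106 named calls, 55 held without each array, with array weights and with the Xist term. No named call changed sign under any alternative run. Values that changed sign belonged to genes not called: Pax5 was 0.028 with quantile normalization, and without single arrays Pax5 ranged from -1.76 to 1.005, Ebf1 from -0.54 to 0.80 and Cd72 from -0.25 to 0.87. With the Xist term Igll1 was -0.35, Xist -1.45 and Eif2s3y 1.03. The replicate block called 1264 genes, 1107 of them among the 1327, and ended 2 named calls. The causes were not tested. The floor hides changes among the 7240 genes at it in both groups.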
